A study of Rattus norvegicus with 18 samples.

Results

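Liver RNA was examined for 8 genes that are used as markers of preneoplasia or liver cancer, chosen by symbol in the gene tables of 18 rats. These were Afp, Gpc3, Igf2, Ggt1, Aldh3a1, Akr1b8, Golm1 and Cdh17. Of the 32623 genes in the tables, 7 bore one of these symbols. Akr1b8, an aldo-keto reductase known from rat liver tumours, had no row of its own and is not analysed here. Of the 7, only Afp, Gpc3, Igf2, Golm1 and Cdh17 passed the filter on low counts that left 12904 genes for testing. Ggt1 and Aldh3a1 were too low to judge in that test and are given as counts per rat.

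All groups were of male Wistar rats, with 6 rats and 1 library per rat in each. Control rats received standard chow and normal water for 12 weeks. NASH rats (non-alcoholic steatohepatitis) inhaled CCl4, a hepatotoxin, and drank phenobarbital, an inducer of liver enzymes, for 6 weeks, and afterwards ate a diet rich in fat and cholesterol (HFCD) for 4 weeks without either. For NASH-CH (NASH with cirrhosis), rats had 8 weeks of CCl4 and phenobarbital, followed by 16 weeks in which the HFCD was given together with both. The 2 models therefore differ in duration, in the time on CCl4 and in whether CCl4 continued until the end, and the parts of CCl4, phenobarbital and diet cannot be told apart. The labels describe the protocols only as 10 and 24 weeks of combined treatment. No liver of these groups was labelled as a tumour.

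The members belong to a few kinds of genes. Afp (alpha-fetoprotein, a serum protein), Gpc3 (glypican 3, a proteoglycan of the cell surface) and Igf2 (insulin-like growth factor 2) are oncofetal: fetal liver makes them, adult liver makes little, and hepatocellular carcinoma often makes them again. Ggt1 (gamma-glutamyltransferase 1, which cleaves extracellular glutathione), Aldh3a1 (an aldehyde dehydrogenase) and Akr1b8 are enzymes known from the altered hepatocyte foci that precede liver tumours in rats. Golm1 encodes the Golgi protein GP73, whose serum level is used as a marker of chronic liver disease and liver cancer. Cdh17 encodes liver-intestine cadherin, an adhesion molecule of the rat liver and the intestine.

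Expression is given as CPM, the counts of a gene relative to the library total, scaled by the trimmed mean of M-values (TMM). Totals ran from 19498534 to 29491947 counts in control and NASH rats and from 44680344 to 60117822 in NASH-CH rats, so 3 counts in a rat correspond to 0.0948 to 0.187 CPM in the former and to 0.0390 to 0.0655 CPM in the latter. Depth separated the NASH-CH group from both others, and any effect of it on low genes cannot be told apart from the condition. CPM values are not divided by gene length, and levels are therefore compared between groups and not between genes. In bulk tissue, fewer cells of a type and less RNA per cell cannot be told apart.

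The promoters of Afp and Gpc3 are shown because both genes are oncofetal, and their values in these livers differed. The sequences are the 250 bases before the annotated start of each gene on its own strand, from RefSeq in the GRCr8 build, and 5 of the 8 members had an entry (Afp, Gpc3, Ggt1, Igf2 and Akr1b8). The Afp sequence lies at chr14:17875646-17875895 and the Gpc3 sequence at chrX:137157599-137157848, both on the minus strand. Capitals mark 4 motifs, searched on both strands. The TATA box was searched as TATAAA. The binding motif of HNF1, a hepatocyte transcription factor, was searched in part, as GTTAAT. The core of the Foxa factors, which act in liver development, was searched as TGTTTGC. The GC box was searched as GGGCGG, which reads CCGCCC on the other strand. None of the motifs found overlaps another.
Afp: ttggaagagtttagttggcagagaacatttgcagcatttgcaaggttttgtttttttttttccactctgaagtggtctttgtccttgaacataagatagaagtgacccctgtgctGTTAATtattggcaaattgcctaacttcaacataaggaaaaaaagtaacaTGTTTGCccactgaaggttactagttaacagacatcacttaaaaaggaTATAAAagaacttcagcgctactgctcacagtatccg
Gpc3: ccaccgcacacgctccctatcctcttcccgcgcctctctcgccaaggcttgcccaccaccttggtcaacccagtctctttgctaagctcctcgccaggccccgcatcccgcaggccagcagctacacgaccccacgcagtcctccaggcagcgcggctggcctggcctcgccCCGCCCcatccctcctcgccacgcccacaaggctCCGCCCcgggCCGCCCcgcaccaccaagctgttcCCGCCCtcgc
The Afp promoter had a GC content of 37.2% with 2 CpG dinucleotides, and the Gpc3 promoter one of 71.6% with 22, beside medians of 51.2% and 5 over 33469 RefSeq promoters of the same length. In the Afp sequence the TATA box began 37 bases before the start, the Foxa core 85 and the HNF1 motif 135. In the Gpc3 sequence GC boxes began 78, 44, 34 and 10 bases before the start. On either strand, 12.9% of all promoters held the TATA box, 6.45% the HNF1 motif, 4.16% the Foxa core and 30.5% the GC box. A match to these letters is a description of the sequence and not a measured binding site.

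In NASH-CH livers, Gpc3 rose about 5.04-fold in mean CPM in comparison to control rats, and Aldh3a1, which had no count in any control rat, had counts in every rat. In NASH livers, Cdh17 rose by 3.00 on the log2 scale. Afp and Igf2 did not pass the test in any comparison, and nor did Golm1. Of the 5 tested members, 1 passed between NASH and control rats (Cdh17, higher), beside 3.12% of all tested genes. Between NASH-CH and control rats 1 passed (Gpc3, higher), beside 17% of all tested genes, and between NASH-CH and NASH rats 1 passed (Gpc3, higher), beside 4.2%. All adjusted p-values are from limma-voom in 1 fit of the 18 rats, adjusted by the Benjamini-Hochberg method over the 12904 genes, with a threshold of 0.05.

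**Figure D1:**
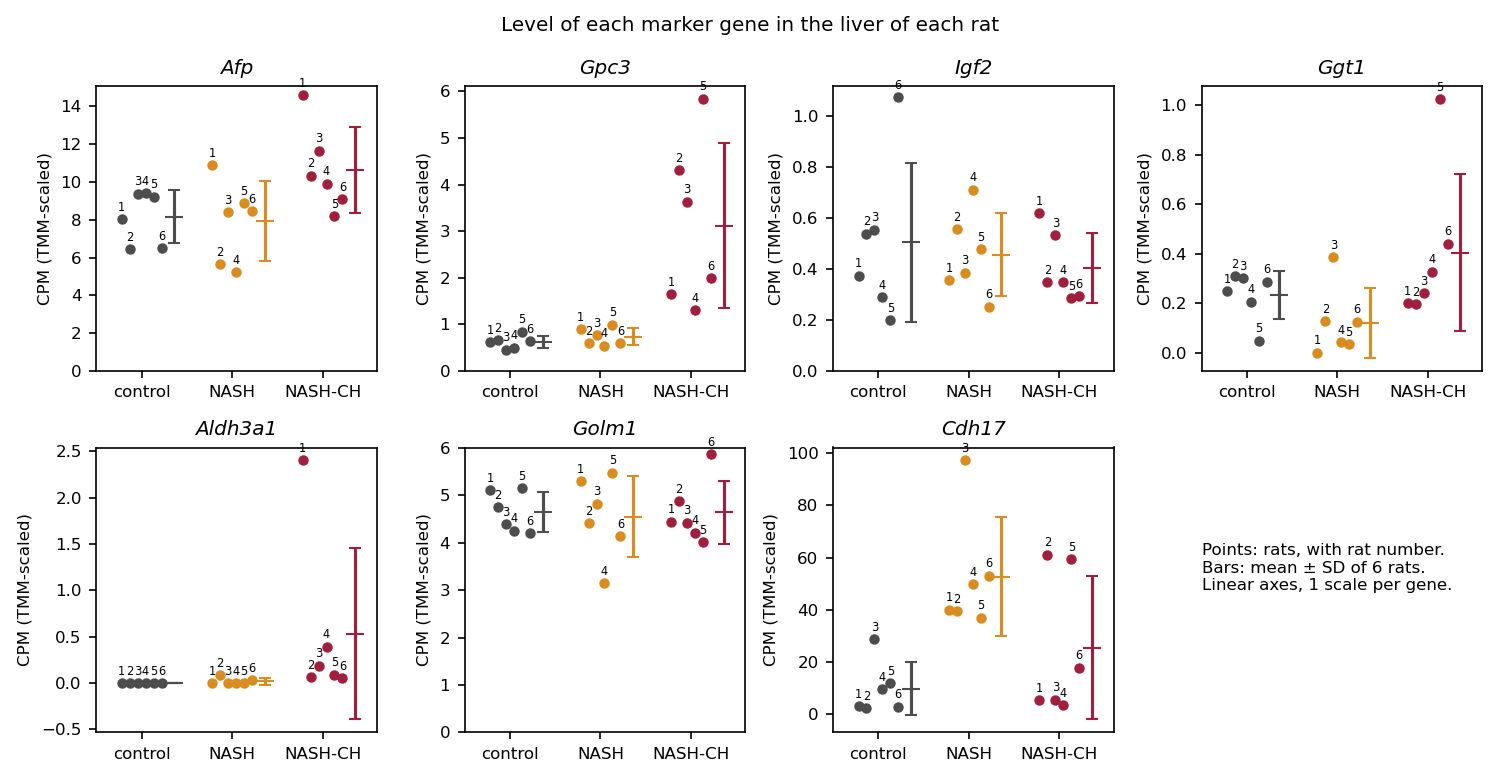
Level of each of the 7 marker genes in each rat, in TMM-scaled CPM on linear axes with a scale of its own for each gene. Points are rats with their numbers, and bars are the mean ± SD of 6 rats. Gpc3 in all 6 NASH-CH rats lies above every other rat, and Cdh17 in all 6 NASH rats lies above every control rat. Groups without overlap occurred in 7.11% (NASH-CH against control), 3.46% (NASH-CH against NASH) and 3.16% (NASH against control) of all tested genes.

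Gpc3 (ENSRNOG00000060179) was low in control livers, with a lowest value of 0.454 CPM, a median of 0.634 and a highest of 0.843. In NASH livers it ran from 0.545 through a median of 0.686 to 0.993 CPM. In NASH-CH livers it ran from 1.31 through a median of 2.81 to 5.84 CPM. Thus, all 6 NASH-CH rats lay above all 12 others, while NASH and control rats overlapped. The means were 0.620 ± 0.137, 0.734 ± 0.182 and 3.12 ± 1.78 CPM for control, NASH and NASH-CH (SD, n = 6 each), on 9 to 29 counts per rat in control and NASH livers and 60 to 450 in NASH-CH livers. The log2 fold change of NASH-CH against control was 2.16 (SE 0.49, 95% interval 1.13 to 3.19, adjusted p = 0.00632). Against NASH it was 1.93 (SE 0.45, interval 0.99 to 2.87, adjusted p = 0.0178). Groups without overlap, as seen for Gpc3 in these comparisons, occurred in 7.11% and 3.46% of all tested genes. Between NASH and control rats the log2 fold change was 0.22 (interval -1.05 to 1.49, adjusted p = 0.868). In order of level NASH-CH came first, and NASH and control did not differ beyond their spread.

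The NASH-CH rats differed among themselves in Gpc3 by a ratio of 4.46 between the highest and the lowest. The SD of log2 CPM in that group was larger than that of 94.5% of tested genes, beside 52.0% in control rats. The highest value was that of NASH-CH rat 5, with rat 2 next at 4.31 CPM. Rat 5 stood apart from the other NASH-CH rats in other genes too, as given below, and without it the mean of Gpc3 was 2.58 CPM, 4.16-fold that of controls (two-sided exact permutation p = 0.00216, the smallest p that 5 against 6 rats allow). In the fit without rat 5 the log2 fold change against control was 1.89 (adjusted p = 0.00248). The call against control held in each of the 18 fits that leave out 1 rat. The call against NASH was lost without NASH rat 6 (adjusted p = 0.0515) and in a fit of the 2 groups alone (adjusted p = 0.0701).

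Some genes of fibrogenic cells also rose in NASH-CH livers. Of 5 tested markers of stellate cells and myofibroblasts, 2 rose in NASH-CH against control, beside 8.38% of all tested genes that passed as higher. They were Col1a1 (type I collagen) by 1.02 and Des (desmin) by 0.65 on the log2 scale (adjusted p = 0.0186 and 0.00468). By group, this list summed to 237 to 332 CPM (control), 196 to 274 (NASH) and 248 to 388 (NASH-CH). NASH-CH rats 1, 3 and 4 lay inside the control range, and none of the genes of the list was at 0 in a whole group. The 3 genes whose level followed that of Gpc3 most closely over the 18 rats, after each group mean was subtracted, were Col6a1 (a collagen VI chain), Ppic (a cyclophilin) and Mxra8 (a matrix remodelling protein). Their Pearson r was 0.825, 0.816 and 0.810 (Spearman rho 0.746, 0.705 and 0.692), and r was 0.676, 0.592 and 0.602 without NASH-CH rats 4 and 5. These genes were picked as the highest of all tested genes and share libraries and depth with Gpc3, so the values are descriptive. The part of the stromal genes in the change of Gpc3 was not tested.

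Afp (ENSRNOG00000002889) was detected in every liver. It ran from 6.44 through a median of 8.63 to 9.42 CPM in control rats, from 5.24 through 8.42 to 10.9 CPM in NASH rats, and from 8.18 through 10.1 to 14.6 CPM in NASH-CH rats. All 3 groups overlapped, although 4 of the 6 NASH-CH rats exceeded the highest control. The means were 8.17 ± 1.41, 7.91 ± 2.12 and 10.6 ± 2.28 CPM (SD, n = 6 each). NASH-CH against control differed by 0.38 on the log2 scale (SE 0.18, interval 0.01 to 0.75), with an unadjusted p of 0.0435 and an adjusted p of 0.145 by limma-voom. Hence a mean difference of 30.1% did not pass the test over all genes. NASH-CH against NASH gave 0.44 (interval 0.07 to 0.80, adjusted p = 0.184), and NASH against control -0.06 (interval -0.45 to 0.34, adjusted p = 0.896). With scaling by library size only, Afp was 0.63 higher in NASH-CH than in control rats (adjusted p = 0.00501), but that scaling moved the median of all tested genes by 0.27 in this comparison and by 0.23 in NASH against control.

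The repressors of Afp were measured beside it. Zhx2 and Zbtb20 are transcription factors known to silence Afp in the liver after birth, and of the 3 tested genes of a list of oncofetal genes and their repressors these 2 rose in both models, with a list median of 0.54 in NASH and 0.71 in NASH-CH, beside a median of 0.01 over all tested genes in each comparison. Of all tested genes, 1.58% passed as higher in NASH and 8.38% in NASH-CH against control. Zbtb20 ran from 17.0 through 23.9 to 32.6 CPM in control rats, from 40.0 through 44.6 to 61.5 in NASH rats and from 36.2 through 38.6 to 66.5 in NASH-CH rats. Its log2 fold change was 0.99 in NASH (SE 0.17, adjusted p = 0.00562) and 0.82 in NASH-CH (SE 0.17, adjusted p = 0.00369). Zhx2 ran from 6.51 through 7.21 to 8.41 CPM in control rats, from 8.43 through 10.4 to 12.7 in NASH rats and from 9.38 through 12.4 to 13.3 in NASH-CH rats. Its log2 fold change was 0.54 in NASH (SE 0.12, adjusted p = 0.0214) and 0.71 in NASH-CH (SE 0.11, adjusted p = 0.000379). For both genes, every rat of either model lay above every control rat, and groups without overlap against control occurred in 3.16% of all tested genes in NASH rats and in 7.11% in NASH-CH rats. Neither differed detectably between the 2 models, with -0.17 for Zbtb20 (adjusted p = 0.666) and 0.17 for Zhx2 (adjusted p = 0.430). The third tested gene, Igf2bp3, an RNA-binding protein that is known to bind Igf2 mRNA, had group means of 14.5, 13.6 and 8.84 CPM (control, NASH, NASH-CH) and did not pass (adjusted p = 0.921 and 0.0922 against control). Dlk1, Igf2bp1, Igf2bp2, Lin28b and Sall4 were under the filter in these adult livers, and H19 and Meg3 are not used here. Sall4 had 2 to 17 counts in control rats (mean 0.314 CPM) and 0 in every NASH and NASH-CH rat. Its exact permutation p, unadjusted, was 0.00216 against control in both models. Igf2bp2 had means of 0.420, 0.133 and 0.0504 CPM (control, NASH, NASH-CH), with an exact permutation p of 0.0130 and 0.00216 against control. Dlk1 was counted only in NASH-CH rats, and Dlk1, Igf2bp1 and Lin28b did not exceed 0.130 CPM in any rat.

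Igf2 (ENSRNOG00000020369) lay near the lower limit of what could be tested. It ran from 0.198 through 0.457 to 1.08 CPM in control rats, from 0.253 through 0.433 to 0.713 CPM in NASH rats and from 0.286 through 0.349 to 0.620 CPM in NASH-CH rats. The groups overlapped, and the highest value was that of a control rat. These levels rest on 4 to 31.45 expected counts per rat, of which some were fractional, that is, shared with another gene by the counting. The log2 fold change was -0.29 in NASH-CH against control (SE 0.34, interval -1.01 to 0.42, adjusted p = 0.591) and -0.10 in NASH against control (interval -0.89 to 0.68, adjusted p = 0.906). The direction in both comparisons with control turned with scaling by library size only (0.04 and 0.15).

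**Figure D2:**
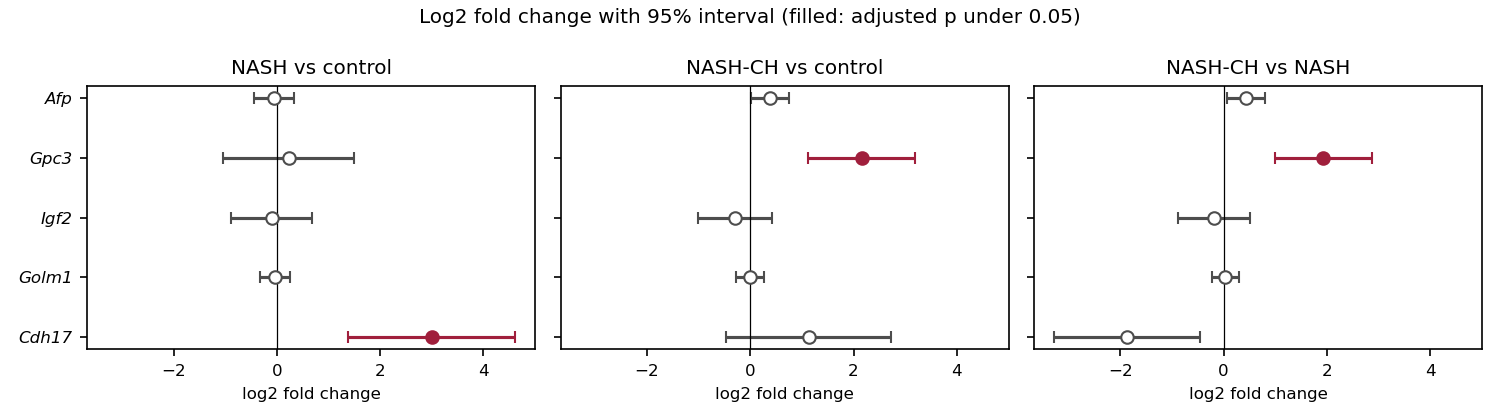
Log2 fold change of the 5 tested marker genes in the 3 comparisons, with 95% intervals from limma-voom. Filled points have an adjusted p under 0.05: Cdh17 in NASH against control, and Gpc3 in NASH-CH against control and against NASH.

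Aldh3a1 (ENSRNOG00000002331) had 0 counts in each of the 6 control rats. In NASH livers it had 2 counts in rat 2, 1 count in rat 6 and 0 in the other 4 rats. In NASH-CH livers it had counts in all 6 rats, with a lowest of 3, a median of 9 and a highest of 120. Rat 1 held the 120 counts, equal to 2.40 CPM, and the next rat stood at 0.393 CPM, so that 75.2% of the group's summed level came from 1 rat. The pooled level of NASH-CH rats was at least 21.9-fold higher than the level that 3 counts over the control group would give, and at least 6.67-fold higher without rat 1. Against NASH, where 3 counts were seen in all, the ratio of pooled levels was 25.5 (counting interval 8.57 to 125), and it was 7.79 (interval 2.49 to 39.3) without rat 1. The two-sided exact permutation p of mean CPM, unadjusted, was 0.00216 against control, the smallest that 6 against 6 rats allow, and 0.00649 against NASH. Apart from rat 1, NASH-CH values lay between 0.0552 and 0.393 CPM, around the 0.108 to 0.187 CPM that 3 counts are worth in the shallower control libraries. With every library thinned to the size of the smallest, the exact permutation p remained 0.00216 against control and was 0.00433 against NASH. Leaving out any 1 control rat gave an exact permutation p of 0.0974 against control, and leaving out any 1 NASH rat gave 0.106 to 0.141 against NASH. The other 12 fits of each comparison stayed under 0.05. All control rats were at 0, so leaving out 1 of them did not change the separation of the groups. With groups of unequal size, splits that place rat 1 in the smaller group can exceed the observed difference of means. These higher p-values therefore do not measure dependence on the rat left out.

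Ggt1 (ENSRNOG00000047697) was hardly detected. It had 1 to 8 counts in control rats (median 5.5), 0 to 10 in NASH rats (median 2) and 9 to 79 in NASH-CH rats (median 14.5). In CPM, control rats lay between 0.0496 and 0.308, NASH rats between 0 and 0.386 and NASH-CH rats between 0.196 and 1.03, so all groups overlapped. Group means were 0.234 ± 0.098, 0.119 ± 0.140 and 0.405 ± 0.318 CPM (control, NASH and NASH-CH, SD, n = 6 each). The exact permutation p was 0.240 for NASH-CH and 0.126 for NASH against control. It was 0.0303, unadjusted, between NASH-CH and NASH, and 0.0606 without NASH-CH rat 5, which held 79 counts. Without this rat the NASH-CH mean was 0.281 CPM. Between NASH-CH and NASH the exact permutation p was also 0.0628 to 0.0801 without any of NASH rats 1, 2, 4, 5 or 6, in fits with groups of unequal size. Between NASH and control, the exact permutation p was 0.0130 without NASH rat 3, which held 10 counts.

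Other enzymes of rat foci and genes of the Nrf2 response to oxidants and electrophiles, including its regulators, formed a list that was abundant enough to test. Of 14 tested genes of this list, 1 fell in NASH and 3 rose in NASH-CH against control, with list medians of 0.33 and 0.29. Of all tested genes, 3.12% passed in NASH against control, and 8.38% passed as higher in NASH-CH against control. Ephx1 (microsomal epoxide hydrolase, a classical marker of foci) ran from 337 through 441 to 539 CPM in control rats, from 521 through 613 to 1381 in NASH rats and from 583 through 1009 to 2110 in NASH-CH rats. Its log2 fold change in NASH-CH was 1.31 (SE 0.26, adjusted p = 0.00263), and in NASH it was 0.71 and did not pass (adjusted p = 0.113). Abcc3 (the multidrug resistance protein MRP3, an exporter of conjugates) ran from 1.26 through 1.68 to 2.18 CPM in control rats. In NASH rats it ran from 1.44 through 7.48 to 34.2 CPM, and in NASH-CH rats from 6.38 through 7.14 to 46.9 CPM, so the medians of the 2 models were close. In NASH-CH against control, Abcc3 rose by 2.95 on the log2 scale (SE 0.98, adjusted p = 0.0455). NASH-CH rats 5 and 6 held its highest values, and the other 4 rats still lay above every control rat. Groups without overlap occurred in 7.11% of all tested genes in this comparison. Ephx1 and Abcc3 are also known targets of phenobarbital. NASH rats had it until 4 weeks before the end of the protocol, NASH-CH rats until the end, and controls not at all. Its part in these values was not tested.

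The third gene that rose was Gstp1, named after its values were seen. Gstp1 (placental glutathione S-transferase, the best known marker of rat foci) ran from 7.07 through 8.33 to 9.72 CPM in control rats, from 7.60 through 8.10 to 10.2 in NASH rats and from 8.78 through 11.8 to 15.9 in NASH-CH rats. It rose by 0.49 in NASH-CH against control (SE 0.14, adjusted p = 0.0210) and by 0.49 against NASH (SE 0.13, adjusted p = 0.0457). The groups overlapped, and rat 1, with the most Aldh3a1, held the highest value. Without NASH-CH rat 5, 2 genes of the list passed in NASH-CH against control, and none passed against NASH.

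The relatives of each member showed that the members' families did not move as 1 group. Of 21 tested relatives, 2 rose in NASH, and 5 rose and 3 fell in NASH-CH against control, with list medians of 0.16 and 0.12. Of all tested genes, 3.12% passed in NASH and 17% in NASH-CH against control. Akr1b10, a tested relative of Akr1b8, ran from 0.202 through 0.876 to 1.93 CPM in control rats, from 0.386 through 1.51 to 1.74 in NASH rats and from 2.11 through 2.92 to 4.38 in NASH-CH rats. Every NASH-CH rat lay above every other rat, and groups without overlap occurred in 7.11% (against control) and 3.46% (against NASH) of all tested genes. The log2 difference of Akr1b10 was 1.88 against control (SE 0.41, adjusted p = 0.00438) and 1.54 against NASH (SE 0.36, adjusted p = 0.0178). Since the genes of this family are near copies, and Akr1b8 had no row, reads of the latter could have been counted elsewhere, and the value of Akr1b10 is uncertain to that extent. The other tested relatives of Akr1b8 did not share this pattern. In control, NASH and NASH-CH rats the means were 4.15, 0.129 and 0.799 CPM for Akr1b7 and 4.22, 3.59 and 4.50 CPM for Akr1b1. Aldh1a1 (a retinaldehyde dehydrogenase) rose by 2.20 in NASH (SE 0.36, adjusted p = 0.00528) and by 2.10 in NASH-CH (SE 0.37, adjusted p = 0.000919), from a median of 47.0 CPM in control rats to 222 and 190. It did not differ detectably between the models (-0.10, adjusted p = 0.934), whereas Aldh3a1 was counted mostly in NASH-CH.

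Of the other relatives that passed, which were named after their values were seen, Gpc6, another glypican, rose by 1.37 in NASH-CH (SE 0.36, adjusted p = 0.0138), from a mean of 0.327 to 0.877 CPM. Gpc4, a further glypican, was 0.12 higher and did not pass (adjusted p = 0.588). Among genes of the Igf axis, Igf2r (the receptor that clears Igf2) rose by 0.63 (adjusted p = 0.0443) and Igf1 fell by 0.39 (adjusted p = 0.0365). Alb, the serum albumin gene that neighbours Afp in sequence and in the genome, fell by 0.61 (SE 0.19, adjusted p = 0.0304), with means of 105874 and 71037 CPM in control and NASH-CH rats. Aldh3a2 fell by 0.40 (adjusted p = 0.0461). Cdh2, the cadherin of hepatocytes, rose by 0.47 in NASH and 0.44 in NASH-CH (adjusted p = 0.0476 and 0.0269). Cdh1, the epithelial cadherin, had 0.16 and 0.36 and did not pass (adjusted p = 0.684 and 0.261).

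Around Ggt1, the enzymes of the gamma-glutamyl cycle, which make and recycle glutathione, gave few calls. Of 9 tested genes, 1 fell in NASH (Gss, glutathione synthetase, by 0.55, adjusted p = 0.0346, named after its value was seen) and 1 rose in NASH-CH, with list medians of 0.30 and -0.02. These counts stand beside 3.12% and 17% of all tested genes that passed in these comparisons with control. The gene that rose was Dpep1, a dipeptidase that acts after gamma-glutamyltransferase on the products of glutathione. Dpep1 ran from 1.04 through 1.21 to 2.23 CPM in control rats, from 1.64 through 2.24 to 2.43 in NASH rats and from 3.34 through 5.86 to 7.77 in NASH-CH rats. All NASH-CH rats lay above all others, and groups without overlap occurred in 7.11% (against control) and 3.46% (against NASH) of all tested genes. The log2 difference of Dpep1 was 1.97 against control (SE 0.28, adjusted p = 0.000112) and 1.33 against NASH (SE 0.24, adjusted p = 0.00203). Of 6 tested genes of the aryl hydrocarbon receptor, which is known to induce Aldh3a1, 0 passed in limma-voom in any comparison. An unadjusted p under 0.05 was found for 2 in NASH and 1 in NASH-CH against control, and for 2 in NASH-CH against NASH, with 0 calls in edgeR in each and 1, 0 and 1 in DESeq2. Without NASH-CH rat 5, limma-voom called 1 gene of this list in NASH-CH against NASH. Cyp1a1, the classical target of that receptor, had group means of 2.21, 1.28 and 2.76 CPM (adjusted p = 0.600 and 0.615 against control).

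**Figure D3:**
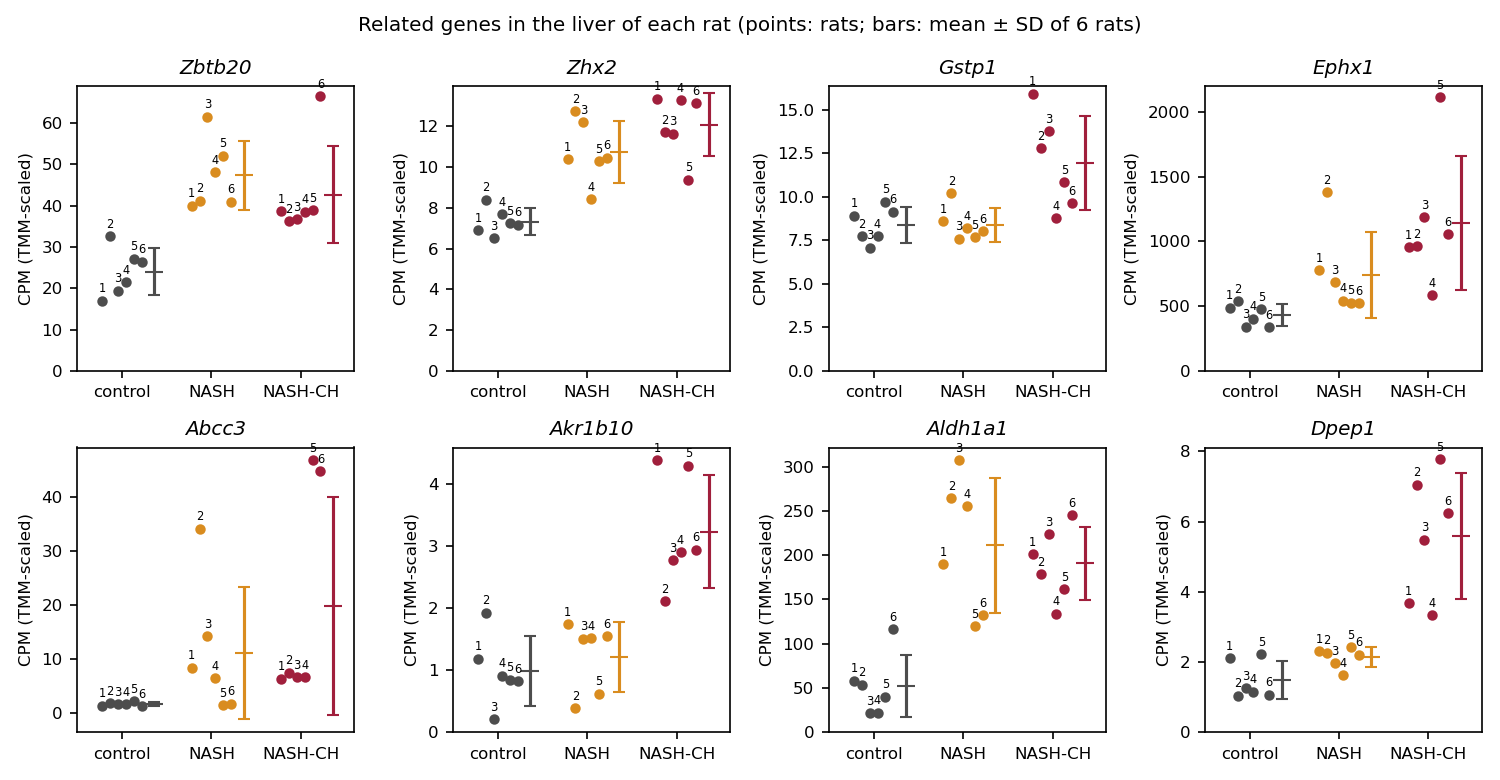
Level of 8 related genes in each rat, in TMM-scaled CPM on linear axes, with points for rats and bars for the mean ± SD of 6 rats. Zbtb20 and Zhx2 are higher than in every control rat in both models, and Akr1b10 and Dpep1 are higher in all 6 NASH-CH rats than in any other rat. Groups without overlap occurred in 3.16% (NASH against control), 7.11% (NASH-CH against control) and 3.46% (NASH-CH against NASH) of all tested genes.

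Cdh17 (ENSRNOG00000015562) had the largest SD of log2 CPM of the 5 tested members in each group. It ran from 2.35 through a median of 6.28 to 28.8 CPM in control rats, from 36.9 through 44.9 to 97.2 CPM in NASH rats and from 3.38 through 11.7 to 61.2 CPM in NASH-CH rats. All 6 NASH rats lay above all 6 control rats, and groups without overlap occurred in 3.16% of all tested genes in this comparison. The NASH-CH rats spread over the range of NASH and control rats. Rats 2 and 5 were at 61.2 and 59.4 CPM, rat 6 at 17.8, and rats 1, 3 and 4 between 3.38 and 5.54. The means were 9.74 ± 10.2, 52.7 ± 22.7 and 25.4 ± 27.5 CPM (SD, n = 6 each), on 49 to 4577 counts per rat. The SD of log2 CPM was larger than that of 98.2%, 86.4% and 99.3% of tested genes among control, NASH and NASH-CH rats, respectively.

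In NASH against control, the log2 fold change of Cdh17 was 3.00 (SE 0.77, interval 1.39 to 4.61, adjusted p = 0.0405, exact permutation p = 0.00216). The call was close to the threshold. It was lost in 11 of the 18 fits that leave out 1 rat, namely without any of control rats 1 to 5 or any of the 6 NASH rats (adjusted p = 0.0522 to 0.0997), although the log2 fold change stayed between 2.68 and 3.41 in all 18. The edgeR quasi-likelihood test gave 2.44 (adjusted p = 0.0603). NASH-CH against control gave 1.13 (SE 0.76, interval -0.47 to 2.73, adjusted p = 0.326), and NASH-CH against NASH gave -1.87 (SE 0.67, interval -3.28 to -0.45, adjusted p = 0.137). Without NASH-CH rat 5 the latter was -2.30 and passed narrowly (adjusted p = 0.0497). By mean and by median NASH came first, then NASH-CH and then control, and NASH-CH was separated by the test from neither of the others.

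Markers of other tissues that express Cdh17 were set beside it. The summed level of 6 intestinal genes was 0.359 to 0.785 CPM (control), 0.154 to 0.671 (NASH) and 0.340 to 1.81 (NASH-CH), with Cdx1 at 0 in all 18 rats and Cdx2 at no more than 0.131 CPM. The 1 tested gene of the list, Fabp2, did not pass. The 7 genes of exocrine pancreas summed to 23.4 to 41.0, 11.1 to 27.2 and 6.85 to 88.9 CPM in the same order. Cela1 had the largest mean of these genes in every group, and fell by 1.72 in NASH-CH against control (adjusted p = 0.00019). Pancreatic Prss1, Ctrb1 and Pnlip were at 0 in all 6 NASH rats and in 5 control rats. They stood at 1.56, 1.41 and 1.51 CPM in control rat 3, which had the highest Cdh17 of the controls, and at 10.5, 16.3 and 10.7 CPM in NASH-CH rat 5. NASH-CH rat 2, with the most Cdh17 of its group, had no more than 0.0871 CPM of any of the 3. Their part in the level of Cdh17 in these rats was not tested.

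A kidney gene also rose in NASH. Slc12a1, the sodium, potassium and chloride cotransporter of the renal tubule, rose by 3.13 in NASH (adjusted p = 0.0101), and was the only 1 of 3 kidney markers that passed the filter. In NASH-CH against control it had a log2 fold change of -2.15 (adjusted p = 0.0755), opposite in sign to that of Cdh17, and against NASH it fell by 5.28 (adjusted p = 3.33e-05). The kidney list summed to 0.0623 to 0.372 CPM (control), 0.924 to 3.79 (NASH) and 0.0130 to 0.0736 (NASH-CH), with Umod at 0 in all control and NASH-CH rats. Its part in the Cdh17 result was not tested. The 3 genes that followed Cdh17 most closely within groups over the 18 rats were Timp2 (an inhibitor of metalloproteinases), Fam198b and St3gal5 (a sialyltransferase), with Pearson r of 0.877, 0.839 and 0.833 and Spearman rho of 0.876, 0.847 and 0.789. Without control rat 3 and NASH-CH rat 2, r was 0.868, 0.784 and 0.771.

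Golm1 (ENSRNOG00000018400) had the smallest SD of log2 CPM of the 5 tested members in each group. It ran from 4.20 through 4.57 to 5.16 CPM in control rats, from 3.15 through 4.62 to 5.48 in NASH rats and from 4.01 through 4.43 to 5.87 in NASH-CH rats. The groups overlapped fully, with means of 4.64 ± 0.426, 4.55 ± 0.856 and 4.64 ± 0.668 CPM (SD, n = 6 each). The log2 fold change against control was -0.04 in NASH (interval -0.33 to 0.26, adjusted p = 0.912) and -0.01 in NASH-CH (interval -0.27 to 0.26, adjusted p = 0.982), and NASH-CH against NASH gave 0.03 (interval -0.23 to 0.29, adjusted p = 0.937). With scaling by library size only it was 0.18 and 0.24 against control, beside shifts of 0.23 and 0.27 of the median gene. Its relatives Golim4 and Casc4, which encode proteins of the Golgi, did not pass either, with 0.27 and 0.38 in NASH-CH against control (adjusted p = 0.158 and 0.471).

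For the remaining tested members, the genes closest in pattern were as follows, again picked from all tested genes and given as a description over 18 rats. Afp was followed by Oaz1, Gchfr and Osbpl1a (Pearson r 0.874, 0.867 and 0.866, Spearman rho 0.856, 0.837 and 0.851). Golm1 was followed by Sdr39u1, Med25 and Pou2f1 (r 0.812, 0.801 and 0.796, rho 0.655, 0.701 and 0.498). Igf2 was followed by Nxf1, Btbd19 and Hectd2 (r 0.889, 0.880 and 0.868, rho 0.876, 0.820 and 0.872). Without the 2 rats farthest from the median of the member, r ran from 0.810 to 0.860 for Afp, from 0.550 to 0.657 for Golm1 and from 0.763 to 0.813 for Igf2.

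The members did not reach their highest NASH-CH level in the same rat. Rat 1 was highest in Afp, Igf2 and Aldh3a1, rat 2 in Cdh17, rat 5 in Gpc3 and Ggt1, and rat 6 in Golm1. Rat 5, whose Afp was the lowest of its group, stood apart in several lists, whereas its leukocyte and macrophage genes lay within the range of the others and its stellate genes close to the next rat. The summed level of the proliferation genes, which include Mki67 and Top2a, was 77.5 CPM in rat 5 and 5.62 to 8.04 CPM in the other 5 NASH-CH rats, while the controls ran from 11.2 to 39.3 and NASH from 3.51 to 6.35. Its cholangiocyte and ductular genes summed to 70.1 CPM, beside 15.6 to 29.6 in the rest of its group, 14.2 to 18.1 among controls and 10.6 to 18.8 among NASH rats. Its hepatocyte genes summed to 76143 CPM, beside 91356 to 126898 in the other NASH-CH rats. The part of these in the Gpc3 and Ggt1 levels of rat 5 was not tested, and their values without rat 5 are given above.

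**Figure D4:**
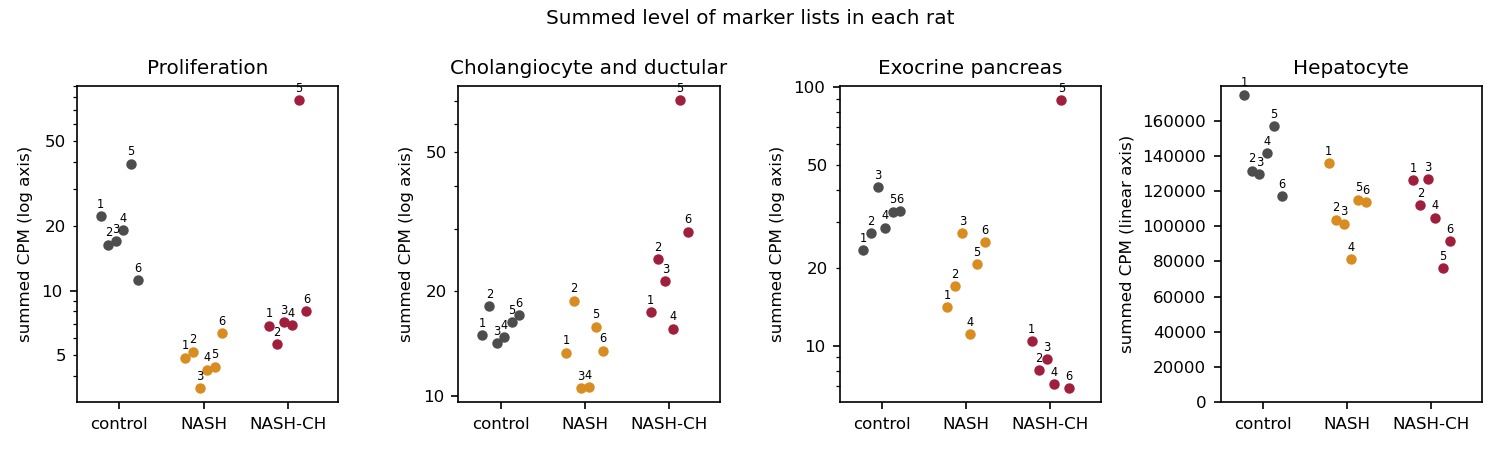
Summed TMM-scaled CPM of 4 marker lists in each rat, on log axes for proliferation, ductular and pancreas genes and on a linear axis for hepatocyte genes. Points are rats with their numbers. NASH-CH rat 5 is the highest of all rats in the first 3 lists and the lowest in the hepatocyte list.

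The lists of other cells gave the following counts, beside 3.12% (NASH against control), 17% (NASH-CH against control) and 4.2% (NASH-CH against NASH) of all tested genes in limma-voom. Of 9 tested proliferation genes 0 passed in limma-voom in any comparison, with list medians of -1.96 in NASH and -0.74 in NASH-CH against control, and of 1.46 in NASH-CH against NASH, where all 9 were above 0. At an unadjusted p under 0.05 there were 8, 2 and 2 such genes in these comparisons, edgeR called 3, 0 and 0, and DESeq2 called 5, 0 and 4. Without NASH-CH rat 5, whose values enter the shared estimate of the spread, limma-voom called 8 genes of the list in NASH and 7 in NASH-CH against control. Of 7 tested ductular genes, 0 passed against control and 1 rose in NASH-CH against NASH, with medians of -0.42, 0.72 and 1.12 in the 3 comparisons. In NASH-CH against control, 2 ductular genes had an unadjusted p under 0.05, and edgeR and DESeq2 called 2. Hepatocyte genes summed to 76143 CPM or more in every rat, matching the labelled tissue, and of 7 such genes 1 rose and 1 fell in NASH, and 1 rose and 3 fell in NASH-CH against control. Of 3 tested endothelial genes 0 passed in limma-voom against control, as in edgeR and DESeq2, with 1 at an unadjusted p under 0.05 in each comparison, and in NASH-CH against NASH DESeq2 called 1. Of 3 tested leukocyte and macrophage genes, 1 fell in NASH-CH against control (Cd163, a macrophage receptor), and none passed without NASH-CH rat 5.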

How the data were processed

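Liver RNA of 18 Wistar rats (6 control, 6 NASH and 6 NASH-CH) was measured by RNA-Seq, with groups taken from the sample labels. The authors trimmed adapters, aligned reads to Rnor_6.0 with STAR and quantified genes with RSEM, and deposited one table of expected counts per rat, without normalization for depth or gene length. Versions of these tools are not given in the sources used here. The labels name the RNAqueous-Micro kit, whereas the methods name the miRNeasy kit. Rats were housed 2 per cage, per the methods, and which rats shared a cage is not given in the sources used here, so p-values treat rats as independent.

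Expected counts were rounded, scaled by TMM (edgeR 4.0.16), filtered with filterByExpr and tested with limma 3.58.1 (voom, R 4.3.3) in 1 fit, with Benjamini-Hochberg adjustment and a threshold of 0.05. Members under the filter, and Sall4 and Igf2bp2 of the lists, were tested one by one with a two-sided exact permutation test of mean CPM, unadjusted. Log2 CPM for correlations used a prior count of 2. Intervals of ratios of counts are exact binomial and, like the limit of 3 counts, cover counting error only.

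The members and lists were chosen with earlier results of these data known. All members were named, and of each list the 2 called genes with the largest absolute log2 fold change in NASH-CH against control and at least 1 CPM in the higher group. Other genes of the lists were named after their values were seen. No 2 rats of a group agreed within counting error (smallest chi-square per degree of freedom 30.3). Tests were tried on simulated data. Alternatives were edgeR, DESeq2 1.42.0, other scalings and filters, 2 groups alone, quality weights, a replicate block, thinned counts and leaving out each rat. Promoters were matched to RefSeq by symbol. Results for some genes of the lists are not reported here.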

Additional observations from a re-analysis of the deposited data

Results flagged for a closer look

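Of the 21 groups of 6 rats (7 genes in 3 groups), all except Aldh3a1 in control rats, which were all at 0, were examined. In 6 groups, 1 rat had a gap to the nearest other rat that exceeded Dixon's critical value for the share of the group's range. Chance flags about 1 in 20 groups of normally distributed values. Most of the 6 flags lie in genes with low counts.

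Cdh17 stood at 28.8 CPM in control rat 3 (next 11.9) and at 97.2 CPM in NASH rat 3 (next 53.0). Ggt1 stood at 0.386 CPM in NASH rat 3 (next 0.129) and at 1.03 CPM in NASH-CH rat 5 (next 0.442). Aldh3a1 stood at 0.0857 CPM, 2 counts, in NASH rat 2 (next 0.0316) and at 2.40 CPM in NASH-CH rat 1 (next 0.393).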

How the results depend on the processing

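Gpc3 kept its direction in NASH-CH against control and against NASH under each alternative that tested it. The count of members called was 1 in each comparison. For NASH against control it was 0 with edgeR, without a filter on low counts and with the replicate block, and 0 to 1 when 1 rat was left out. For NASH-CH against control it was 2 with library size only (with Afp) and 2 without a filter (with Aldh3a1), and for NASH-CH against NASH it was 3 without a filter (with Aldh3a1 and Ggt1). With at least 10 counts in every rat it was 0 in both, since Gpc3 was not tested there. With 2 groups alone it was 0 in NASH-CH against NASH, and 0 to 2 when 1 rat was left out.

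Small differences turned direction, none of them called. With library size only, NASH against control gave 0.16 for Afp, 0.18 for Golm1 and 0.15 for Igf2, and NASH-CH against control gave 0.24 for Golm1 and 0.0352 for Igf2. Quality weights gave Golm1 0.0310 in NASH, 0.00434 in NASH-CH and -0.0267 between the models. Golm1 in NASH-CH was 0.000814 with edgeR and 0.00567 with at least 10 counts, and Igf2 in NASH was 0.0662 with thinned counts. Leaving out 1 rat gave -0.15 to 0.0567 for Afp, -0.0990 to 0.0658 for Golm1 and -0.31 to 0.18 for Igf2 in NASH. Golm1 ran from -0.0722 to 0.0360 in NASH-CH against control and from -0.0692 to 0.0932 against NASH. The cause was not tested.

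Over all genes, NASH against control gave 403 calls, but 652 with edgeR, 1228 with DESeq2, 865 with library size only, 268 without a filter, 644 with 2 groups alone, 1509 with quality weights and 128 to 982 without 1 rat. NASH-CH against control gave 2192, but 5495 without a filter and 1408 with 2 groups alone. NASH-CH against NASH gave 542, but 949 with DESeq2, 2649 without a filter, 349 with 2 groups alone and as few as 346 without 1 rat. Low counts limit Igf2, Ggt1 and Aldh3a1.

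The rats share numbers 1 to 6 across groups, but the labels do not say that these mark a shared cage or day. Deviations of rats with the same number were weakly related (mean r 0.0516, 0.0732 and 0.0154 in the 3 comparisons). Single pairs ran from -0.119 to 0.171, and most lay under 0.1. For rats with different numbers the mean r was -0.0104, -0.0145 and -0.00289. Values this weak cannot show whether rats with the same number shared a cage or day, and the main fit used no replicate block. With the replicate block 444, 2095 and 540 genes were called, and Cdh17 in NASH had a log2 fold change of 3.00 (limma adjusted p = 0.0576).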

Other observations

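Akr1b7, a relative of Akr1b8, differed widely between control rats, from 0.0771 to 17.9 CPM. It ran from 0 to 0.579 CPM in NASH rats and from 0.109 to 3.14 CPM in NASH-CH rats, and its log2 fold change of -3.91 in NASH did not pass (limma adjusted p = 0.231). The control rat with 17.9 CPM, rat 5, also had the highest proliferation sum among controls, 39.3 CPM. The values are given without a test of their relation.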
